A study of Mus musculus with 10 samples.

Results

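The genes described here build the sperm cell after meiosis: they condense its chromatin, fill and shape the acrosome, equip it to meet the egg, assemble the flagellum and fuel it. They were 54 genes, chosen by symbol for these functions and not by any ARID2 value, out of 21774 protein-coding genes in the annotation. Earlier results of these data were known when these genes, and the other gene lists compared below, were chosen. Each symbol, or a synonym that belongs to no other gene, was looked up in the names of the transcription start sites (TSSs) that were enriched for ARID2, the DNA-binding subunit of the PBAF form of the SWI/SNF chromatin remodeler. The question was whether genes of the spermatid are already among the ARID2-enriched TSSs while the cells are still in meiosis I. When each member is first transcribed was not part of the choice, so some may already be transcribed in meiosis.

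ARID2 occupancy was measured by CUT&RUN, in which a nuclease held by an antibody at its target cuts out the nearby chromatin for sequencing. Spermatogenic cells came from CD1 mice with no engineered allele named in the labels, at P28 and at P28.5. All mice had been made synchronous: they received WIN 18,446, which blocks retinoic acid synthesis, from day 1 to day 10 after birth and 1 dose of retinoic acid on day 11. P28 was thus 17 days and P28.5 17.5 days after the retinoic acid. Each age had 2 ARID2 libraries, 2 BRG1 libraries (BRG1 is the catalytic ATPase of the complex) and 1 control library without primary antibody, 10 samples in all. The isolation enriched pachytene, diplotene and metaphase spermatocytes. Round spermatids were present too, and by the description of the synchronized testes they were more numerous at P28.5 than at P28, so that age and cell makeup cannot be told apart. The lists hold no expression values, and the makeup of the cells could not be checked against marker genes.

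The authors clustered TSSs by their mean ARID2 signal over the control and deposited, for each age, the TSSs of the enriched cluster as a position and a gene name. There were 11553 rows with 7144 different positions at P28, and 8514 rows with 5193 positions at P28.5. A position recurs where several transcripts share it. The lists carry no signal, strand or replicate, so a gene is either listed or not, no error can be put on a listing, and no test between ages was possible.

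In the mouse testis, round spermatids switch on a large set of genes that are silent in most other cells. Transition proteins first displace histones from the DNA and protamines then take their place, which compacts the nucleus. Meanwhile the Golgi builds the acrosome, a vesicle of enzymes and zona-binding proteins that caps the nucleus, and the flagellum grows from the opposite pole. Many of these genes are transcribed days before their mRNA is translated, and several are germ-cell-specific copies of genes used in every tissue. Promoters of tissue-specific genes often have few CpG dinucleotides, whereas promoters of widely expressed genes often lie in CpG islands.

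The sequences just upstream of 4 members with a listed row at their own start are shown first, with the gap between Calr3 and its neighbour. They show how unlike each other these stretches were. Each runs 5′ to 3′ in the direction of the gene over the 200 bases before its outermost annotated 5′ end, on GRCm38.p6, the assembly behind mm10. The rows under the names of Hook1 and Pick1 lie further in, past the bases shown. Izumo4 also had a row at its own start and is not shown. For Calr3, which runs leftward, the 60 bases between its start and that of 1700030K09Rik are shown on the plus strand. Capitals mark matches, on either strand, to the 6 motifs that are described further on.
Hook1 (chr4:95966981-95967180, plus strand): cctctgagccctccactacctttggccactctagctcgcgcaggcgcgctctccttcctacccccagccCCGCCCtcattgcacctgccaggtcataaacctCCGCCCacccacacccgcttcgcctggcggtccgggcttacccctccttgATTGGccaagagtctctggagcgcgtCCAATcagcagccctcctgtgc
Pick1 (chr15:79228940-79229139, plus strand): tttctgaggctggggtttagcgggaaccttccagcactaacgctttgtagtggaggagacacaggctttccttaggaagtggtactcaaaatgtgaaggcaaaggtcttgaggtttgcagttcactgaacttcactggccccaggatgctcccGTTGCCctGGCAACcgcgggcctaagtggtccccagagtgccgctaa
Tekt3 (chr11:63061459-63061658, plus strand): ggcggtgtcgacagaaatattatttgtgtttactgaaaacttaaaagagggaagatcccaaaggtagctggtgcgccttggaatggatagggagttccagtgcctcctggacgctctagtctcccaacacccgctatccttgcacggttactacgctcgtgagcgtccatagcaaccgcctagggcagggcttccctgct
Catsperb (chr12:101404445-101404644, plus strand): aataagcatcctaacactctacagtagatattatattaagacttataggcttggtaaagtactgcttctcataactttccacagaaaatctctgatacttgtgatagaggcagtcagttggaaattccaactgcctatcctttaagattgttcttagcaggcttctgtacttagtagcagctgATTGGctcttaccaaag
Calr3 and 1700030K09Rik (chr8:72443820-72443879, plus strand): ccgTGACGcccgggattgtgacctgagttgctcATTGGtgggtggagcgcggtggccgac

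The 200 bases before Hook1 held 12 CpG dinucleotides, those before Tekt3 held 10 and those before Pick1 held 6, while Catsperb had none. The shorter gap of 60 bases between Calr3 and 1700030K09Rik held 6. Hook1 had 2 matches to the GC box, 131 and 98 bases before its start, and 2 to the inverted CCAAT box, 48 and 22 bases before it. Pick1 had a pair of short X-boxes on opposite strands, 47 and 39 bases before its start. Tekt3 had no match to any of the motifs in these 200 bases.

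Next are 4 members whose start carried no listed row at either age. They are Prm1, a protamine, Tnp1, a transition protein, and the germ-cell isoforms of lactate dehydrogenase and phosphoglycerate kinase, Ldhc and Pgk2.
Prm1 (chr16:10796824-10797023, minus strand): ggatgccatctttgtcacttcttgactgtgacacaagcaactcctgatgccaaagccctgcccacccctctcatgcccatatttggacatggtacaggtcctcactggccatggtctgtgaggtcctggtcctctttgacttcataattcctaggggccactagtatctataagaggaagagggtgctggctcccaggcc
Tnp1 (chr1:73015900-73016099, minus strand): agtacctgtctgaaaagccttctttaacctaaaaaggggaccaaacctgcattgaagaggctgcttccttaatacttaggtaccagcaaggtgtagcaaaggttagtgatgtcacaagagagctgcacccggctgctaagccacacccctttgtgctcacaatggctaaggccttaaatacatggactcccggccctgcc
Ldhc (chr7:46861063-46861262, plus strand): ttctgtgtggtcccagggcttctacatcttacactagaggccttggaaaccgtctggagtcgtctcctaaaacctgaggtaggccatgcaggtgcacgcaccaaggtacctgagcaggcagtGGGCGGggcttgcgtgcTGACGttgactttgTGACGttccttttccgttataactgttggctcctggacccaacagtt
Pgk2 (chr17:40208610-40208809, minus strand): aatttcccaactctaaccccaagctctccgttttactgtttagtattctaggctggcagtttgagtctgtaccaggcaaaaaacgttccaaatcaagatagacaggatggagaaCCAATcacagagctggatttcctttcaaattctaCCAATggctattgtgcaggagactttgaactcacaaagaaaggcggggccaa

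Prm1 and Tnp1 had no match to the motifs in these bases, and they held 0 and 2 CpG dinucleotides. Pgk2 held 3 CpG dinucleotides and 2 inverted CCAAT boxes, 86 and 52 bases before its start. Ldhc held 8 CpG dinucleotides, a GC box and 2 short cAMP response elements, the last at 61 and 47 bases before its start.

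By name, 10 of the 54 genes were listed at P28: Tnp1, Spaca1, Hook1, Pick1, Izumo4, Odf4, Tekt2, Tekt3, Ropn1l and Catsperb. That is 18.5% of them, beside 16.8% of all protein-coding genes. At P28.5, 3 were listed, Hook1, Pick1 and Izumo4, which is 5.56% of them beside 11.6% of all. These 3 were the genes listed at both ages, and no gene was listed at P28.5 alone. Of the members listed at P28, 30.0% were also listed at P28.5, and of all protein-coding genes listed at P28, 50.5% were. In the other direction, all 3 members listed at P28.5 were also listed at P28, beside 73.1% of all protein-coding genes listed at P28.5. The share at P28 was thus close to the background and that at P28.5 was below it, over counts of 10 and 3 genes.

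A name in the list did not always mark that gene's start. Of the P28 rows that equalled an annotated transcript end, 4893 marked where a plus-strand transcript starts, 1482 where a minus-strand transcript finishes and 4 solely where a minus-strand transcript starts. At P28.5 these counts were 4361, 122 and 4. Where a row equalled an annotated end, it was thus nearly always the lower coordinate of a transcript, which is the start for plus-strand genes and the far end for minus-strand genes. No annotated end was equalled by the remaining rows, 5174 (44.8%) in the P28 list and 4027 (47.3%) in the P28.5 list. For 3506 and 3124 of them the nearest end within 100 bp was a plus-strand 5′ end, for 295 and 302 it was a minus-strand 5′ end, and 1198 and 584 had no end within 100 bp. The 54 members were 26 plus-strand and 28 minus-strand genes. All 5 plus-strand members named at P28 had a row at their own start, whereas the 5 minus-strand members were named through a 3′ end, their own or that of another gene. Among plus-strand genes the members were named in 19.2% at P28, beside 26.0% of all plus-strand genes, and in 11.5% at P28.5, beside 20.4%. Among minus-strand genes the members were named in 17.9% at P28, beside 7.61% of all minus-strand genes, and in 0.00% at P28.5, beside 2.86%. Whether the authors centred the signal of a minus-strand gene on this lower coordinate or on its start is not given in the sources used here. A row at a 3′ end can therefore not be assigned to either place.

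**Figure D1:**
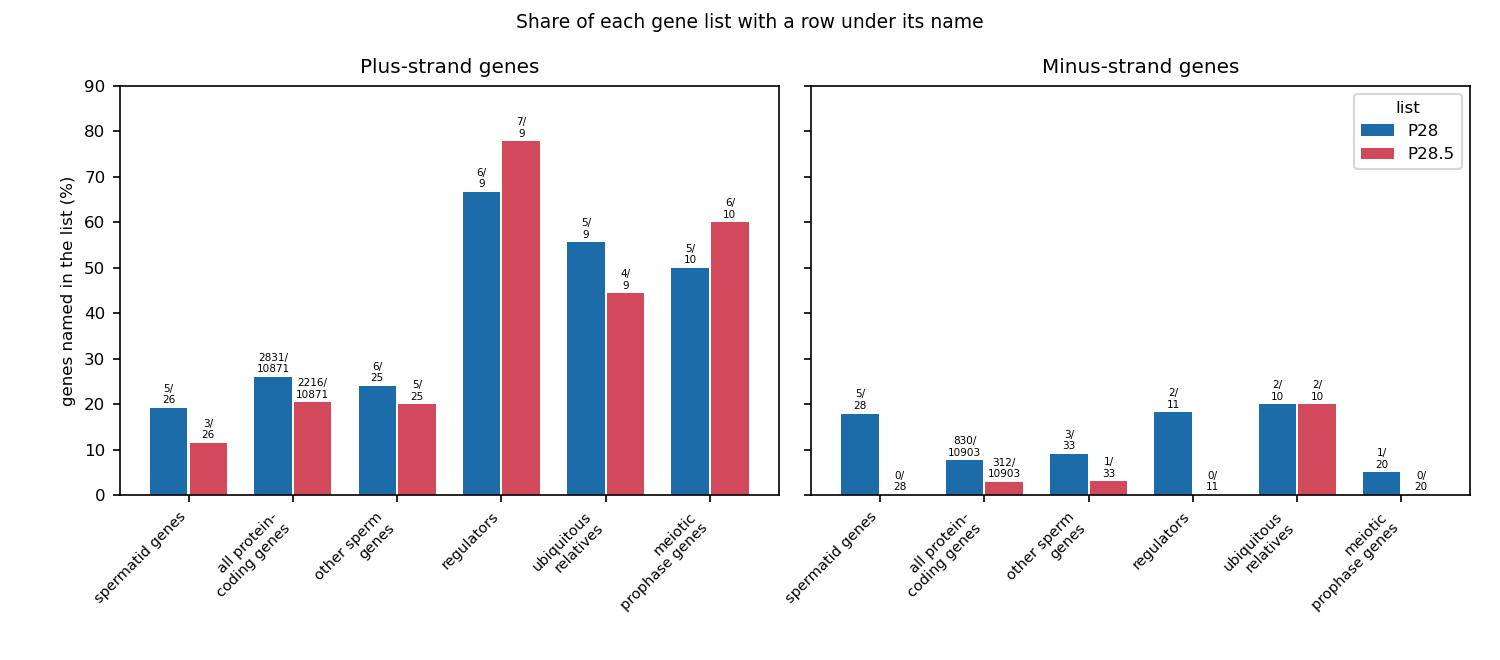
Percentage of genes with a row under their name (vertical axis, starting at 0) in each gene list (horizontal axis), for plus-strand genes on the left and minus-strand genes on the right, at P28 in blue and P28.5 in red, with the counts above the bars. Among plus-strand genes the spermatid genes stand lowest, at 5 of 26 and 3 of 26, and in every list plotted the minus-strand bars are shorter than the plus-strand bars or absent.

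A second count therefore asked for any listed position, whatever its name, within 2000 bp of one of the gene's own 5′ ends. By this count 9 members were near a listed TSS at P28, 16.7% beside 17.3% of all protein-coding genes. At P28.5, 5 members were, 9.26% beside 14.8%. With own-name rows within this distance alone, 6 members remained at P28, 11.1% beside 13.7%, and 3 at P28.5, 5.56% beside 11.4%. In total 13 members had a row under their name or a row near their start at either age.

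**Figure D2:**
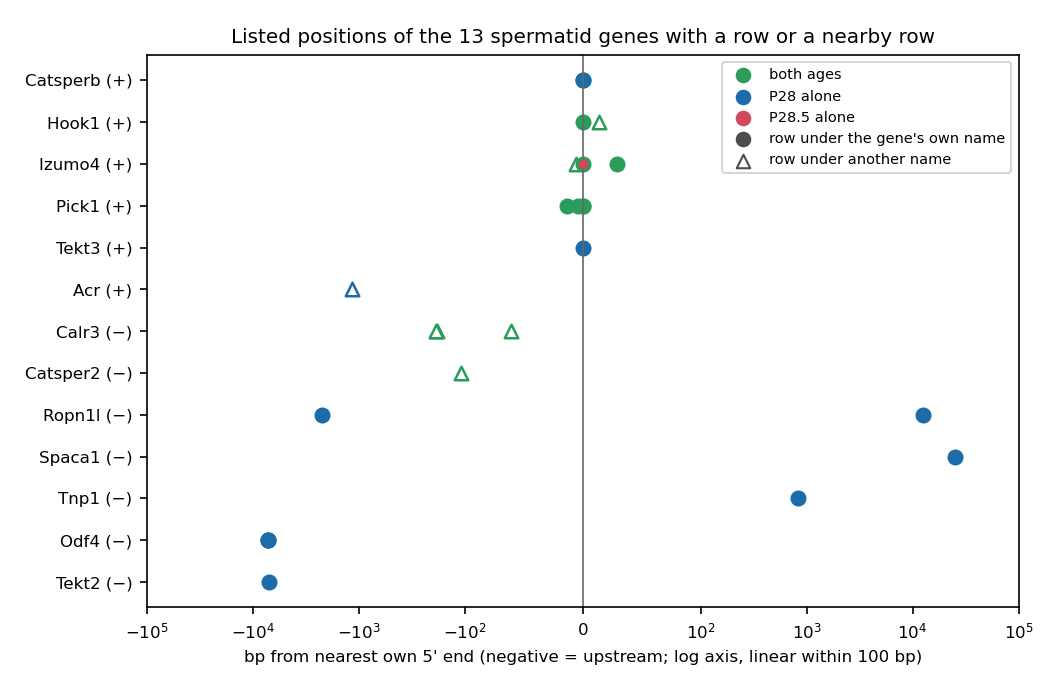
Distance in bp from each listed position to the nearest own 5′ end (horizontal axis, negative upstream, logarithmic beyond 100 bp) for the 13 members with a row under their name or near their start (vertical axis, strand in parentheses). Filled circles are rows under the gene's own name, open triangles rows under another name, and colours show the ages. The 5 uppermost genes have circles at their own start, while those of Spaca1, Ropn1l, Odf4 and Tekt2 lie between 2210 and 25193 bp away.

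Hook1 and Pick1 act in the shaping of the sperm head: Hook1 links cargo to the microtubules of the manchette, the sleeve around the elongating nucleus, and Pick1 takes part in the trafficking of vesicles to the acrosome. Hook1 (GeneID 77963, chromosome 4, 95967181 to 96025412, plus strand) had 1 row at each age, at 95967379, which equals an annotated 5′ end. A further 6 rows at each age lay at 95967195, 14 bp inside the outermost 5′ end of Hook1, but under the name of 9530080O11Rik, a non-coding gene that runs the other way across this start. Pick1 (GeneID 18693, chromosome 15, 79229140 to 79249466, plus strand) had 6 rows at each age, over the positions 79229160, 79229173, 79229363 and 79229382. Of these, 79229173 and 79229382 equal annotated 5′ ends and the others lie 13 and 4 bp from one, all in the non-coding part of exons. The remaining 2 genes of head assembly were both on the minus strand and not listed: Gopc, a Golgi protein needed for acrosome formation, had its nearest listed TSS 35423 bp away at both ages, and Dpy19l2, which anchors the acrosome to the nuclear envelope, had its nearest 555982 bp away at P28 and 555530 bp at P28.5.

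Izumo4 belongs to the family of Izumo1, the sperm protein that binds the egg receptor. Izumo4 (GeneID 71564, chromosome 10, 80702015 to 80705382, plus strand) had 19 rows at P28 and 20 at P28.5. At each age 1 row was at 80702402, an annotated 5′ end, and 18 rows at 80702431, 29 bp further in. The additional row at P28.5 was at 80702693, another of its 5′ ends. Mob3a, a neighbour on the opposite strand, had a row that lay 6 bp upstream of the outermost Izumo4 5′ end at both ages, at 80702009. Rows named for a neighbour thus lay at the starts of both Hook1 and Izumo4. The other members of the family were not listed. Izumo1 was 83282 bp from the nearest listed TSS and Izumo2 39899 bp at both ages, and Izumo3 was 2456036 bp from it at both ages.

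Tekt3 and Catsperb had rows at their own starts at P28 alone. Tekt3 is a tektin, a filament protein of the flagellar microtubules. Tekt3 (GeneID 71062, chromosome 11, 63061659 to 63094960, plus strand) had 1 row at P28, at its annotated 5′ end 63061659, and at P28.5 its nearest listed TSS was 458573 bp away. Catsperb is an auxiliary subunit of CatSper, the calcium channel of the sperm tail. Catsperb (GeneID 271036, chromosome 12, 101404645 to 101626009, plus strand) had 1 row at each of its annotated 5′ ends at P28, 101404645 and 101404673, and its nearest listed TSS at P28.5 was 1064461 bp away. For these genes no listed TSS of a neighbour stood in at the later age.

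A neighbour's row lay near the start of 3 members that had no row of their own name. Calr3 is a testis chaperone of the endoplasmic reticulum that helps to fold the adhesion protein Adam3. Calr3 (GeneID 73316, chromosome 8, 72424176 to 72443819, minus strand) shares a divergent promoter with 1700030K09Rik, which had rows at 72443880, 72444002 and 72444006 at both ages, the nearest 61 bp from the Calr3 start. Catsper2, a pore-forming CatSper subunit (GeneID 212670, chromosome 2, 121391633 to 121414598, minus strand), overlaps head to head with Pdia3, whose row at 121413902 lay 110 bp from a Catsper2 5′ end at both ages and within a non-coding part of a Catsper2 exon. Acr, the gene of the acrosomal protease acrosin (GeneID 11434, chromosome 15, 89568326 to 89578853, plus strand), had a row of the non-coding gene Gm36221 1159 bp upstream, at 89567167, at P28 alone. The Acr row lies within 3 bp of the lower end of Gm36221, a minus-strand gene, and so next to its 3′ end. At Calr3 and Catsper2 the listed TSS belongs to a gene that is not a member, and the lists cannot assign the enrichment to one gene of such a pair.

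The other 5 members that were named at P28 were minus-strand genes with rows at 3′ ends. Tnp1, a transition protein that replaces histones, has a short gene (GeneID 21958, chromosome 1, 73015074 to 73015899). Its 1 row, at 73015074, is its 3′ end, 825 bp downstream of its start, and at P28.5 the nearest listed TSS was 304639 bp away. Spaca1, an acrosomal membrane protein (GeneID 67652, chromosome 4, 34024872 to 34050067), had 1 row at its 3′ end 34024872, 25193 bp from its start. Ropn1l, a ropporin-like protein of the flagellum (GeneID 252967, chromosome 15, 31441210 to 31453689), had 1 row at its own 3′ end 31441210 and 2 rows at 31455899, the 3′ end of Marchf6, 2210 bp upstream of its start. Odf4, a protein of the sperm tail (GeneID 252868, chromosome 11, 68921835 to 68927081), had 1 row at each of 68934326, 68934334 and 68934339. The first 2 of these equal 3′ ends of Arhgef15, and the nearest lies 7245 bp upstream of the Odf4 start. Tekt2, a tektin (GeneID 24084, chromosome 4, 126322121 to 126325688), had 3 rows at 126332732, a 3′ end of Ago3, 7044 bp upstream. None of these 5 genes was named at P28.5. Rows that equalled only 3′ ends were 12.8% of the P28 list and 1.43% of the P28.5 list, so the drop in named members between the ages moved with this change in the lists, whose part in it was not tested. Among the 7 members named at P28 alone, Tekt3 and Catsperb are thus the ones with a row at their own 5′ end.

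For all minus-strand protein-coding genes named at P28, 46.3% had an own-name row within 2000 bp of an own 5′ end, and at P28.5 92.6% had. For plus-strand genes these shares were 91.8% and 98.9%. Of the 384 and 289 minus-strand genes with such a row, the row equalled an own 5′ end in 1 at P28 and 3 at P28.5, a plus-strand 5′ end in 52 and 50, and no annotated end in 251 and 205. Of the 5 minus-strand members named at P28 Tnp1 alone met this distance, since the whole gene is shorter than 2000 bp.

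The remaining 41 members had no row under their name and no listed position within 2000 bp of a start at either age. Of the chromatin condensation genes these were Prm1, Prm2, Prm3 and Tnp2, which lie together within 8889 bp on chromosome 16, from 10787935 to 10796823, all on the minus strand. The nearest listed TSS to the whole cluster was that of Clec16a at 10545352, at both ages, 243303 bp from Tnp2 and 251471 bp from Prm1. These genes had neither a row under their names nor a row at either of their ends.

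Among the acrosomal genes the members without a row were Acrbp, which binds the precursor of acrosin, Acrv1, Zpbp and Zpbp2, which bind the zona pellucida, Spaca3, Spaca4, Spaca7, and the hyaluronidases Spam1 and Hyal5. Of this role 1 of 11 members was named at P28 (Spaca1) and 0 at P28.5. Spam1 and Hyal5 are plus-strand neighbours on chromosome 6 with listed TSSs no nearer than 263044 and 329793 bp at P28, and 2841573 and 2908322 bp at P28.5. For sperm-egg adhesion, besides the Izumo genes, Adam2 and Adam3 (surface proteins needed for binding to the egg), Clgn (the chaperone calmegin), Ace (with its testis form of angiotensin-converting enzyme) and Crisp2 had none. Clgn and Ace are plus-strand genes, and their nearest listed TSSs at P28 were 57221 and 32804 bp away.

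For the flagellum, Odf1 and Odf3 (outer dense fibre proteins), Akap3 (the anchor of protein kinase A in the fibrous sheath), Smcp (of the mitochondrial capsule), Tekt1, Tekt4 and Tekt5, Ropn1 (ropporin), Meig1 and Oaz3 (an antizyme made in spermatids) had no row. In this role 4 of 14 members were named at P28 and 0 at P28.5, and 1 of the 4 (Tekt3) was named at its own start. For ion transport Catsper1, Catsper3 and Catsper4 (pore subunits), Catsperg1 (an auxiliary subunit) and Slc9c1 (the sperm sodium-proton exchanger) had none, so that of 6 CatSper genes Catsperb was the only one with a row under its own name. None of the 3 metabolic genes was listed: Gapdhs, Ldhc and Pgk2, the germ-cell forms of glycolytic enzymes. Pgk2 was 423466 bp from the nearest listed TSS at P28 and 726076 bp at P28.5. Ldhc was 14181 bp from the listed start of Ldha, its ubiquitous relative, at P28, and 65066 bp from the nearest at P28.5, when Ldha was not listed.

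Of the 41, the 5 nearest to a listed TSS at P28 were Odf3 at 5468 bp (Bet1l), Ldhc at 14181 bp (Ldha), Smcp at 15203 bp (Ivl), Spaca4 at 20569 bp (Dbp) and Tekt4 at 20688 bp (Cacna1h). At P28.5 they were Acrbp at 10079 bp (Ing4), Tekt5 at 16424 bp (Nubp1), Spaca4 at 20569 bp (Dbp), Catsperg1 at 22734 bp (Yif1b) and Oaz3 at 23333 bp (Tdrkh). The others lay between 21350 and 2456036 bp away at P28 and between 34478 and 3135017 bp at P28.5. The gene in parentheses is the name of the nearest row.

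**Figure D3:**
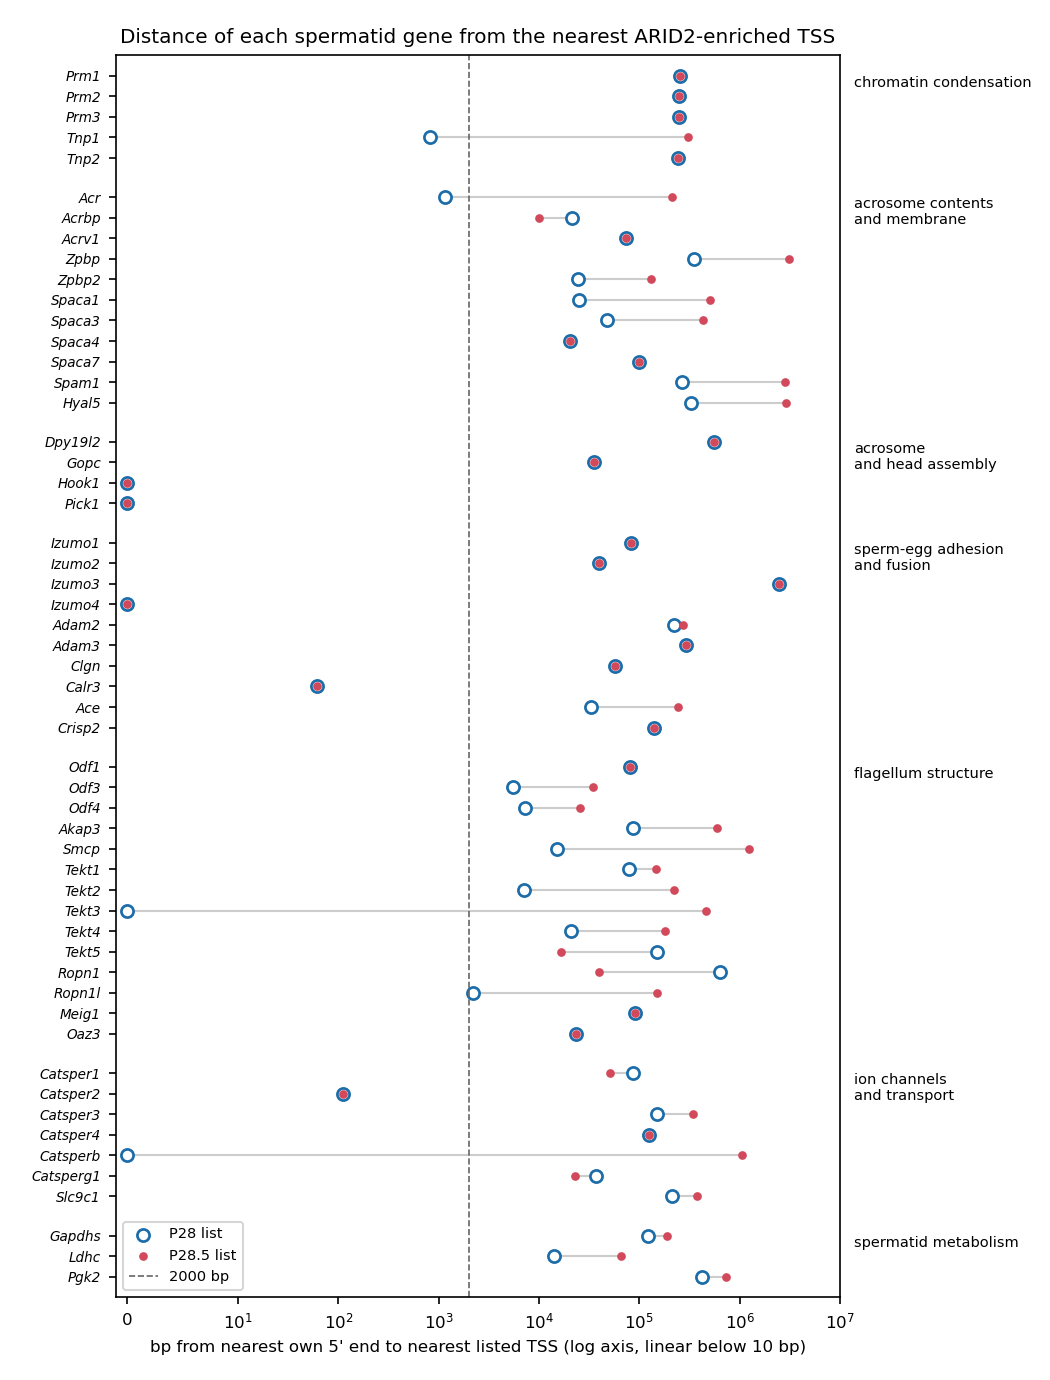
Distance in bp from each member's own 5′ ends to the nearest listed TSS (horizontal axis, logarithmic above 10 bp) for all 54 members by role (vertical axis), with open blue circles for P28 and red dots for P28.5. Left of the dashed line at 2000 bp are 9 genes at P28 and 5 at P28.5, with Hook1, Pick1 and Izumo4 at 0 at both ages, and Ropn1l, at 2210 bp at P28, is the gene nearest to the line on its right.

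Over all 54 members the median distance from the gene's own 5′ ends to the nearest listed TSS was 65516 bp at P28 and 147269 bp at P28.5. Over 20558 autosomal protein-coding genes it was 77215 bp and 137817 bp, and all members are autosomal. The lower and upper quartiles at P28 were 14436 and 195668 bp for members, and 14734 and 234262 bp for all genes. For plus-strand genes the lower quartiles lay further apart: 7646 bp for members and 80 bp for all genes at P28, and 42753 and 13375 bp at P28.5. The nearest distance was smaller at P28 for 25 members, smaller at P28.5 for 7 and equal for 22. Those shares, 46.3% smaller at P28 and 13.0% smaller at P28.5, compare with 47.4% and 16.1% over all autosomal genes.

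The CpG ratio, observed over expected CpG dinucleotides within 500 bp on either side of the outermost 5′ end, had a median of 0.292 in the members, with a range of 0.0233 to 0.832. A gene with several 5′ ends has a single ratio, and its listed position can lie at another of these ends. Over all protein-coding genes the median was 0.516, with quartiles of 0.211 and 0.755. When all genes were divided into 5 equal classes by this ratio, 34 members fell in the lowest 2 classes and 7 in the highest 2. Head assembly stood apart within the list, with a median of 0.713 over its 4 genes, while the metabolic genes had 0.217 and the ion transport genes 0.211.

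Being listed went with the CpG ratio over all genes. In the lowest class 6.54% of all genes were named at P28 and 2.02% at P28.5, and in the highest class 28.8% and 27.0%. In the classes between, from low to high, the shares of all genes were 9.64%, 14.2% and 24.9% at P28. At P28.5 these shares were 3.05%, 6.89% and 19.1%. Among the members, 1 of 12 in the lowest class was named at P28, 2 of 22 in the next, 3 of 13 in the middle class, and then 2 of 5 and 2 of 2. At P28.5 these counts were 0, 0, 0, 2 and 1. Since 5 of the names at P28 rest on rows at 3′ ends, the count by position is set beside it. A listed position lay within 2000 bp of a start in 2 of 12, 1 of 22, 3 of 13, 2 of 5 and 1 of 2 members at P28. At P28.5 these counts by position were 0, 0, 2, 2 and 1. Such counts are too few to show a trend among the members. Over all genes the share by position at P28 was 4.85% in the lowest class and 32.6% in the highest. The members listed at both ages were in the highest classes: Hook1 had a ratio of 0.832, Izumo4 0.673 and Pick1 0.657. Tekt3 and Catsperb, which were listed at their own start at P28 alone, had 0.298 and 0.0853. Of the members with a neighbour's row nearby, Calr3 and Catsper2 had 0.609 each and Acr 0.174. The 41 members without a row had a median of 0.274, but Gopc at 0.769, Ace at 0.721 and Zpbp2 at 0.705 were among them with ratios above that of Izumo4. For Ace, which has 2 annotated 5′ ends, the ratio describes the outermost one and need not hold for the other. The part of promoter CpG content in the listing of these genes was not tested.

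**Figure D4:**
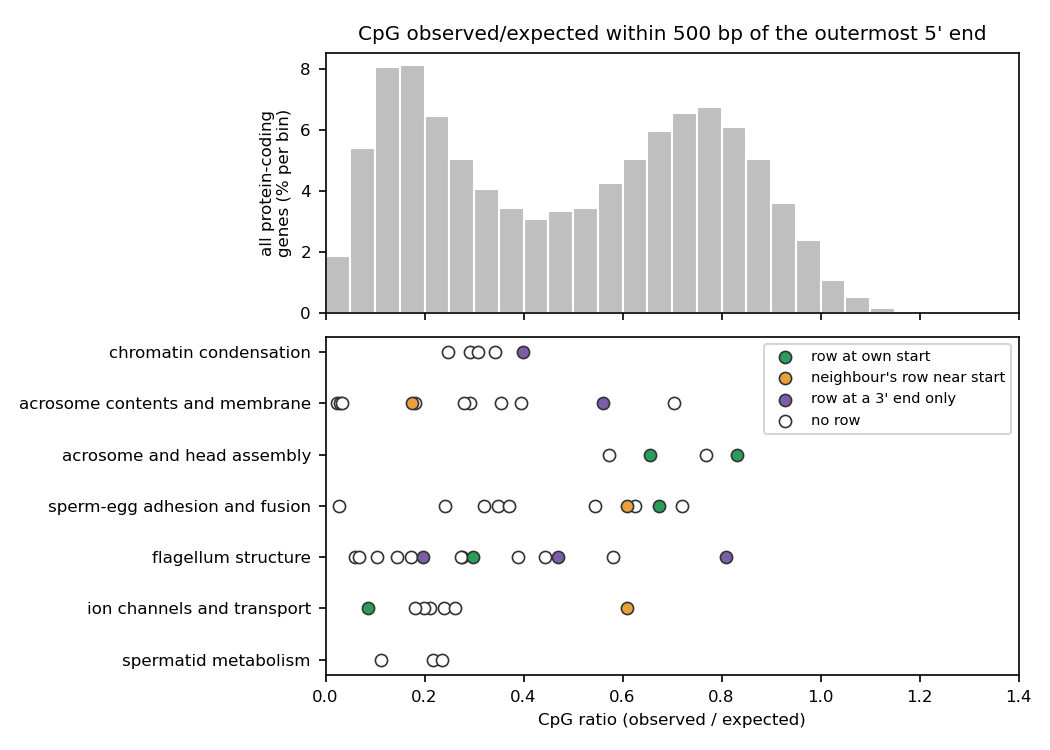
CpG ratio (horizontal axis, observed over expected within 500 bp of the outermost 5′ end) of all protein-coding genes as a histogram in percent per bin (upper panel) and of each of the 54 members by role (lower panel), with fill showing the kind of listed row. Most members lie below 0.4 in the lower of the 2 humps of the histogram, and the green points above 0.6 are Hook1, Pick1 and Izumo4.

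Promoter motifs were searched in the RefSeq promoter sequences of GRCm38.p6, which run from 250 bases before to 50 bases after a start, using the first entry of each gene. Such an entry was found for 46 members and for 17492 protein-coding genes. The missing entries were those of Acr, Izumo4, Adam2, Adam3, Clgn, Odf1, Oaz3 and Catsper1. Both strands were searched, and a full cAMP response element (TGACGTCA) also counts as a short element (TGACG). The full element, which the spermatid activator CREM binds, was in 1 of the 46 members (Izumo1), 2.17% beside 2.34% of all genes. The short element was in 12 (26.1%, beside 23.8%), among them Ldhc, Gapdhs, Spaca1, Calr3 and Catsper2. A TATA box (TATAAA) was in 5 members, Prm2, Spaca7, Ace, Crisp2 and Catsperg1 (10.9%, beside 13.3%).

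The short X-box (GTTGCC), part of the site of RFX factors of ciliated cells and spermatids, was in 8 members, 17.4% beside 12.7% of all genes. They were Acrbp, Pick1, Calr3, Odf3, Tekt1, Tekt2, Tekt4 and Ropn1l. Of these 8, 5 are flagellar genes, a role that holds 14 of the 54 members, and the difference was not tested. The GC box (GGGCGG) was in 17 members, 37.0% beside 46.3%. The inverted CCAAT box (ATTGG) was in 15 members, 32.6% beside 39.0%. Of the 4 genes with a row at their own start and an entry, Hook1 and Pick1 had a GC box, Hook1, Tekt3 and Catsperb an inverted CCAAT box, and none had a TATA box or a short cAMP element. The shares of members were thus within 10 percentage points of those of all genes for each of the 6 motifs, and a match marks only these letters in this window.

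Other gene lists around the same biology were counted in the same way. Of all protein-coding genes, 16.8% were named at P28 and 11.6% at P28.5. Of 58 other sperm genes found in the annotation, 9 were named at P28 (15.5%) and 6 at P28.5 (10.3%), with a median CpG ratio of 0.296. By position within 2000 bp, 10 (17.2%) and 7 (12.1%) of these sperm genes were listed. Those named at both ages were Catsperd, Eno4, Gpx4 and Lypd4. Catsperd, another CatSper subunit, had a CpG ratio of 0.840 and a listed position 5 bp from a start at both ages. Eno4, a sperm enolase, and Gpx4, a peroxidase of the sperm mitochondrial sheath, had low ratios, 0.262 and 0.161. Their listed positions lay 0 and 8 bp from a start at both ages. The ratio was taken at the outermost 5′ end, which need not be the listed start. Lypd4, a minus-strand gene, had a ratio of 0.569 and a listed position 95 bp from a start.

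Of 20 regulators of spermatid transcription, 8 were named at P28 (40.0%) and 7 at P28.5 (35.0%). By position within 2000 bp, 6 (30.0%) and 7 (35.0%) were listed, beside 17.3% and 14.8% of all protein-coding genes. Fhl5 and Rfx3, minus-strand genes named at P28 alone, had their nearest listed position 4968 and 244182 bp from a start. Crem itself had no row, and its nearest listed TSS was 170184 bp away at both ages. The 5 named at both ages were Brdt, a bromodomain protein of the testis, Creb1, a relative of CREM, Rfx1, Sox30, a factor needed to start the spermatid program, and Ybx2, which holds spermatid mRNAs untranslated. All 5 are plus-strand genes with a listed position at an own 5′ end at both ages. Their CpG ratios were 0.226 for Rfx1, 0.295 for Sox30, 0.517 for Brdt, 0.859 for Ybx2 and 0.875 for Creb1. The median over the 20 genes was 0.786. These ratios are those of the outermost 5′ end, which need not be the listed one.

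Of 19 ubiquitous relatives of the members, 7 were named at P28 (36.8%) and 6 at P28.5 (31.6%), with a median CpG ratio of 0.744. By position within 2000 bp, 9 (47.4%) and 8 (42.1%) were listed, beside 17.3% and 14.8% of all protein-coding genes. The 6 named at both ages were Adam10, Calr, Canx, Hook2, Oaz1 and Oaz2. Within the families, then, Oaz1 and Oaz2 were named while Oaz3 was not, Adam10 was named while Adam2 and Adam3 were not, and the chaperones Calr and Canx were named while Calr3 and Clgn were not. Hook1 and Hook2 were both named. Of 30 meiotic prophase genes, 6 were named at P28 and 6 at P28.5 (20.0% each), with Meiob, Stag3 and Sycp3 at both. By position, 8 (26.7%) and 9 (30.0%) of these meiotic genes were listed. On the plus strand alone, the named shares at P28 and P28.5 were 5 and 6 of 10 for the meiotic genes, 6 and 7 of 9 for the regulators, 5 and 4 of 9 for the relatives and 6 and 5 of 25 for the other sperm genes, beside 5 and 3 of 26 for the members. Of all plus-strand protein-coding genes, 26.0% were named at P28 and 20.4% at P28.5. All these shares count genes in 2 lists, and the differences between them were not tested.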

How the data were processed

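The authors aligned the CUT&RUN reads to mm10 with Bowtie2, made BAM files with SAMtools and coverage tracks with deepTools, divided the ARID2 signal by that of the control on a log2 scale, averaged replicates and clustered RefSeq TSSs by k-means. The deposited values used here are positions and names of the enriched TSSs at each age, so depth and replicate spread cannot be read from them. BRG1 libraries and signal tracks were not analysed here.

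Positions were compared with the RefSeq annotation of GRCm38.p6 (49595 genes, 120321 transcripts), and chromosome sequence came from the same assembly. Python 3.11.15, numpy 2.4.6 and matplotlib 3.10.9 were used. The distance code was tested on simulated positions. No statistical test was run, since each list is 1 averaged set. Every member is named; those with a row, or with a position within 2000 bp, are given in full, and of the rest the 5 nearest by distance. From other lists, genes named at both ages are given, at most 6 per list, with Crem, Fhl5 and Rfx3 added among the regulators. Members and lists were chosen with earlier results of these data known.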

Additional observations from a re-analysis of the deposited data

How the results depend on the processing

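Counted by name, 10 members were listed at P28, 3 at P28.5 and 3 at both ages. At P28 the count moved to 6 with own-name rows within 2000 bp of an own 5′ end, and to 5 of 26 on the plus strand alone. At P28.5, and at both ages, it moved to 5 with any position within 1000, 2000 or 5000 bp, or within 500 bp, a distance added after seeing the data. The other settings stayed within 1.5 times the count. By position, neighbours' rows at Calr3 and Catsper2 enter at P28.5. With own-name rows within 2000 bp, Spaca1, Ropn1l, Odf4 and Tekt2 leave at P28, while Tnp1 stays. The plus-strand setting counts a smaller set of members, of which 19.2% were named at P28, beside 18.5% of all members. The median CpG ratio of the members, 0.292, was 0.292 within 250 bp and 0.267 within 1000 bp. With all annotated genes as background, the listed share was 8.23% at P28 and 5.45% at P28.5.

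No paired analysis was possible because the lists come from the mean of the replicates. No replicate was left out, for that reason. The lists carry no strand, so a row at the 3′ end of a minus-strand gene cannot be placed at its start or its end, and an unlisted gene is not shown to lack ARID2.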
